A study of Mus musculus with 8 samples.

Results

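The genes described here encode 9 chemokines made by gut epithelium and the cytokine tumour necrosis factor: Cxcl1, Cxcl2, Cxcl5, Cxcl10, Cxcl16, Ccl20, Ccl25, Ccl28, Cx3cl1 and Tnf. They were chosen by gene symbol, and all 10 were found among the 45777 genes of the deposited table. RNA was sequenced from colonic organoids, cultures of the epithelium grown in Matrigel from crypts freed with EDTA, of male C57BL/6J mice aged 9 weeks. KO organoids (4 libraries, replicates 5 to 8) came from Reg3aΔIEC mice, in which Villin-Cre deletes the loxP-flanked exons 2 to 4 of Reg3a throughout the gut epithelium. WT organoids (4 libraries, replicates 13 to 16) came from Reg3a fl/fl mice, which carry the same loxP sites, so that neither genotype has an unmodified Reg3a gene. The labels do not say whether WT mice carried Cre. No stimulus was given, and organoids were harvested 3 days after passage at passage 15 or earlier. REG3A is a secreted lectin of the gut epithelium, and the study's title links it to IL-22 and wound healing.

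Chemokines are small secreted or membrane-held proteins that guide leukocytes along a gradient through receptors on the leukocyte surface. In gut epithelium, CXCL1, CXCL2 and CXCL5 act on CXCR2 and draw neutrophils. CXCL10 (through CXCR3), CXCL16 (CXCR6), CCL20 (CCR6), CCL25 (CCR9), CCL28 (CCR10 and CCR3) and CX3CL1 (CX3CR1) draw lymphocytes, and some of them also dendritic cells, monocytes or eosinophils. CX3CL1 is grouped here with the lymphocyte attractants although its receptor is prominent on monocytes and macrophages. TNF activates NF-kB through its receptors, and NF-kB in turn induces several chemokine genes. CXCL16 and CX3CL1 differ from the other chemokines in being made as membrane-anchored proteins that ADAM10 and ADAM17 can release.

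The promoter sequences of some of the genes are given first, from RefSeq on GRCm38.p6, 5′ to 3′ on the gene's own strand, as the 220 bases before the annotated start. Cxcl1 and Cxcl2 are shown because they are neighbours that share a kappaB match, Cxcl10 because it holds the most motif matches, and Tnf and Cx3cl1 because their levels differed between the genotypes. Ccl28 also differed but is not shown, and its stretch before the start held no match. Capitals mark matches to the kappaB consensus (the site of NF-kB), to the interferon-stimulated response element core, to the AP-1 motif TGANTCA and to TATAAA. The stretches are chr5:90891025-90891244 on the plus strand for Cxcl1, chr5:90903679-90903898 on the plus strand for Cxcl2 and chr5:92348890-92349109 on the minus strand for Cxcl10. Those of Tnf and Cx3cl1 are chr17:35202008-35202227 on the minus strand and chr8:94771960-94772179 on the plus strand.
Cxcl1: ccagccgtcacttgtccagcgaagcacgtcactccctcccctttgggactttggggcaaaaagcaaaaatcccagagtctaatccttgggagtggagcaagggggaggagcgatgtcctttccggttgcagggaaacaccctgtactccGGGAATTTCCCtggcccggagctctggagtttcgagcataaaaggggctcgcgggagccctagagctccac
Cxcl2: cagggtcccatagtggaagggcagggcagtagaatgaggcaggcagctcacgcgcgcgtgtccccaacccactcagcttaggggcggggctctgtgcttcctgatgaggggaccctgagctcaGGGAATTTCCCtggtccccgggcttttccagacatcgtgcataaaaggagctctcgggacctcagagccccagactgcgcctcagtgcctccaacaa
Cxcl10: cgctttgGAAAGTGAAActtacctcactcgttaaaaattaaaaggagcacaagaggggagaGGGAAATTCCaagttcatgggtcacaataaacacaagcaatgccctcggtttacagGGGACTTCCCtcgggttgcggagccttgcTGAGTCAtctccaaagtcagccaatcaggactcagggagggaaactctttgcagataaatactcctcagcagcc
Tnf: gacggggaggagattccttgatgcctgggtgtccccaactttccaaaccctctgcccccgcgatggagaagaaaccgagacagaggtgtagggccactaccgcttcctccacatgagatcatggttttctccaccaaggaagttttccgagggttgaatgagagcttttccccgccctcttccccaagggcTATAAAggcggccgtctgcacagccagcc
Cx3cl1: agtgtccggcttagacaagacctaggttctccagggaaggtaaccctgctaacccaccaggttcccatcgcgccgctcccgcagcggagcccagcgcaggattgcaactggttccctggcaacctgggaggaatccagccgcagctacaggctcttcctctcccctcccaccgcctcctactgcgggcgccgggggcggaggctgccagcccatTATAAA

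Of the 10 genes, 8 had an entry in the promoter table, and Cxcl5 and Cxcl16 had none. Windows ran from 250 bases before the start to 50 bases from it, and positions count from 0 at the start. The Cxcl1 and Cxcl2 windows held a kappaB match in the same letters, GGGAATTTCCC, which read as a match on both strands, at positions -71 to -61 and -97 to -87 from the start. Cxcl10 held 2 kappaB matches, at -159 to -150 and -103 to -94, with an interferon element core at -213 to -204 and an AP-1 match at -74 to -68. Ccl20 held 1 kappaB match, at -80 to -71 on the minus strand. A kappaB match was found in 4.51% of all 32851 promoter windows of the table, the interferon core in 3.44%, TGANTCA in 7.81% (these 3 searched on both strands) and TATAAA in 8.32% (sense strand). The windows of Tnf and Cx3cl1 held TATAAA at -29 to -24 and -6 to -1, one of the 2 Ccl25 windows held it at -16 to -11, and Ccl28 held an AP-1 match at 20 to 26. These matches describe letters in the windows, not factor binding.

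**Figure D1:**
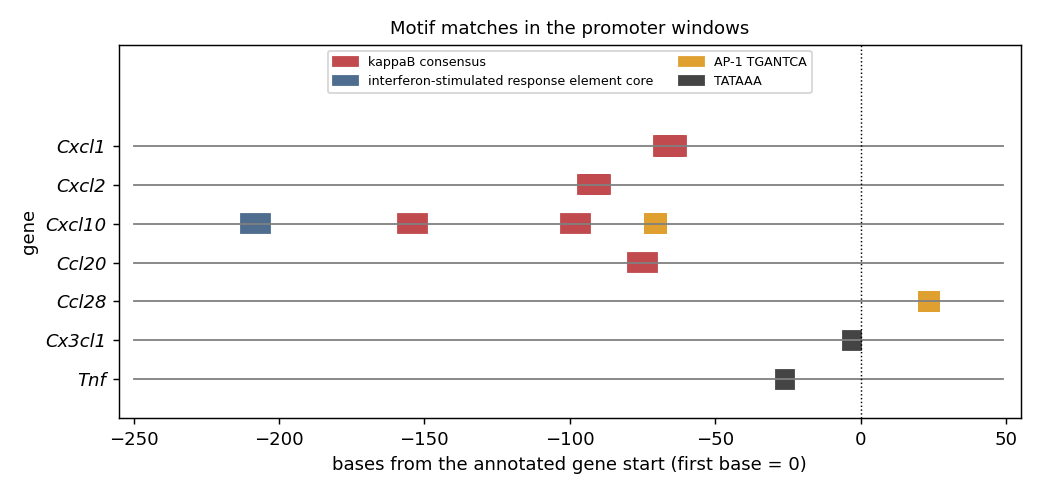
Motif matches in the promoter windows of 7 of the genes, by distance in bases from the annotated gene start. Coloured blocks mark matches, and kappaB blocks are in the windows of Cxcl1, Cxcl2, Cxcl10 and Ccl20, with 2 in that of Cxcl10.

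Before the comparison, facts of the libraries bear on it. Library totals lay between 37182098 and 49256171 counts. Reg3a had 0 counts in all 8 libraries, so the deletion cannot be seen here. If each count is 1 fragment, this allows up to 0.0807 CPM (counts scaled to library size) in the shallowest library and 0.0609 CPM in the deepest. The labels say in one place that each genotype came from 1 mouse plated in 4 wells and in another that 3 mice per genotype were used. The p-values therefore rest on variation among these libraries, which may be technical, and genotype, Cre, mouse and organoid line cannot be told apart. KO replicate 6 stood apart by 18 genes with at least 30 counts there, at least 10 times the count in any other library, together 0.0126% of its counts, and no other library had any such gene. Among the 18 were the surfactant protein genes Sftpc (1090 counts), Sftpa1 (180 counts) and Sftpb (150 counts), Scgb1a1 (434 counts) and the myeloid gene Lyz2 (480 counts), known from lung tissue and, for Lyz2, from macrophages, and apart from Lyz2, which is in the leukocyte marker list, these were picked after their values were seen. Without KO replicate 6 the same genes passed in the same directions among the 10, with values given beside each. The part of that library's other transcripts in the results was not tested.

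The organoids carried epithelial transcripts and, of the leukocyte markers, chiefly Ly6g. All 11 epithelial markers were tested, with a summed level of 11418 to 12068 CPM in KO organoids and 11090 to 11938 CPM in WT. Of these 3 rose, 1 fell and 7 were not called, where 7.63% of all tested genes rose and 8.26% fell. Their median log2 fold change was -0.031. Krt20, a keratin of mature surface cells, rose to 70.7 ± 4.94 CPM in KO, against 41.7 ± 2.85 CPM in WT organoids (SD, n = 4, edgeR adjusted p = 6.3e-06), and the transcription factor gene Cdx2 (log2 fold change 0.33) and the brush border gene Vil1 (0.25) rose with it, while Cldn3, a claudin gene, fell by 0.21. Of 16 leukocyte markers 5 had enough counts to test and none was called, and 6, among them the T cell genes Cd3e, Cd3d, Cd4 and Cd8a, had 0 counts in every library. The pan-leukocyte gene Ptprc had at most 9 counts in any library. The summed level of the leukocyte markers, 433 to 481 CPM in KO organoids and 453 to 504 CPM in WT, was almost all Ly6g. Ly6g stood at 454 ± 17.3 CPM in KO organoids and 465 ± 23.8 CPM in WT, and S100a8 at 2.30 ± 0.368 and 2.89 ± 0.259 CPM (SD, n = 4). With the other markers far lower than Ly6g, the sum cannot be read as an amount of leukocyte RNA. The fibroblast markers summed to 5.90 to 7.55 CPM in KO organoids and 4.38 to 7.04 CPM in WT, led by Pdgfrb, with 3 of 9 tested, 3 at 0 throughout and none called. Those of endothelium summed to 3.00 to 5.90 CPM in KO organoids and 3.17 to 4.72 CPM in WT, led by Vwf, with Cdh5 at 0 in all but KO replicate 6, and with 1 of 6 tested and none called. The part that Krt20 and the other epithelial markers have in the chemokine differences was not tested, and in bulk samples a change in the number of cells of a type and a change in RNA per cell cannot be told apart.

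All 10 genes passed the filter on low counts, although Cxcl1 in 1 KO library lay under its level of 0.214 CPM. In KO organoids 2 of the 10 rose (Ccl28 and Cx3cl1) and 3 fell (Cxcl1, Cxcl16 and Tnf) by the edgeR quasi-likelihood test with Benjamini-Hochberg adjusted p under 0.05 over the 14945 genes tested, while 5 did not pass. Over all tested genes 15.9% were called, 7.63% as higher and 8.26% as lower in KO. The median log2 fold change of the 10 was -0.17, that of all tested genes -0.0012. The same 5 genes were those whose KO libraries did not overlap the WT libraries, as was so for 20.2% of all tested genes (9.91% with KO above WT and 10.3% with KO below WT). By role, 1 of the 3 neutrophil attractants fell and none rose, with a median log2 fold change of -0.77, whereas 2 of the 6 lymphocyte attractants rose and 1 fell, with a median of 0.15. Cx3cl1 is 1 of the 2 that rose, so that of the other 5 lymphocyte attractants 1 rose (Ccl28) and 1 fell (Cxcl16). A difference between these roles was not tested.

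**Figure D2:**
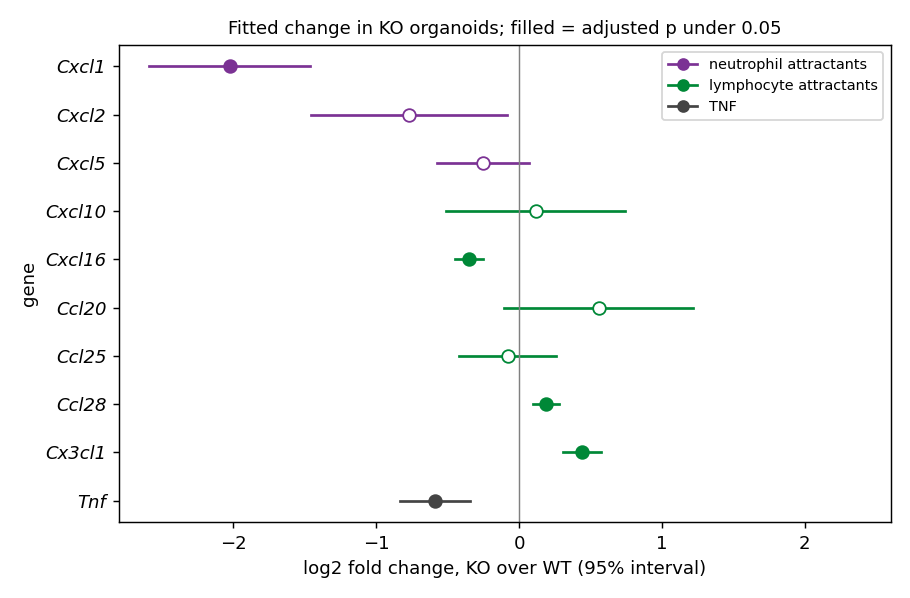
Fitted log2 fold change of each gene in KO over WT organoids with its 95% interval, coloured by role. Filled points passed the adjusted test, namely Cxcl1, Cxcl16 and Tnf below 0 and Ccl28 and Cx3cl1 above it.

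The levels of the 10 genes spanned a wide range, compared here per length on the authors' TPM (transcript abundance scaled for length). Averaged over the 8 libraries, Cxcl16 stood at 118 TPM, Ccl28 at 52.4 TPM, Cx3cl1 at 28.8 TPM and Tnf at 9.74 TPM. None of these 4 overlapped the next in this order in any library. Ccl25 (2.97 TPM), Cxcl5 (2.88 TPM), Cxcl1 (1.98 TPM), Cxcl10 (1.72 TPM), Ccl20 (1.57 TPM) and Cxcl2 (1.19 TPM) followed, and the library ranges of neighbours in this lower part of the order overlapped. The lymphocyte attractants together made up 93.8% to 94.7% of the summed TPM of the 10 genes in KO libraries, against 90.8% to 92.2% in WT libraries. Their own sum, given below, was not higher in KO on this scale. The higher share goes with lower means of Tnf (7.88 TPM in KO, 11.6 TPM in WT) and Cxcl1 (0.789 and 3.18 TPM). Both genes are reported singly below, so the share is no further result. The neutrophil attractants summed to 4.34, 5.02, 3.94 and 3.99 TPM in KO replicates 5 to 8, against 8.08, 7.83, 9.25 and 5.97 TPM in WT replicates 13 to 16. Within this sum only Cxcl1 separated the genotypes by library. Cxcl2 (0.410 to 1.24 TPM in KO, 1.10 to 1.90 TPM in WT) and Cxcl5 (2.27 to 2.87 and 2.61 to 3.78 TPM) overlapped. The sum therefore does not show a fall of each gene. The lymphocyte attractants summed to 199 to 203 TPM in KO and 205 to 213 TPM in WT. On this scale both sums were lower in every KO library than in every WT library, the second by a small margin. On the CPM scale, which does not weight by length, the lymphocyte attractants summed to 241 to 245 CPM in KO organoids and 235 to 242 CPM in WT and overlapped, so the direction of their sum depends on the scale. These sums include Cx3cl1.

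**Figure D3:**
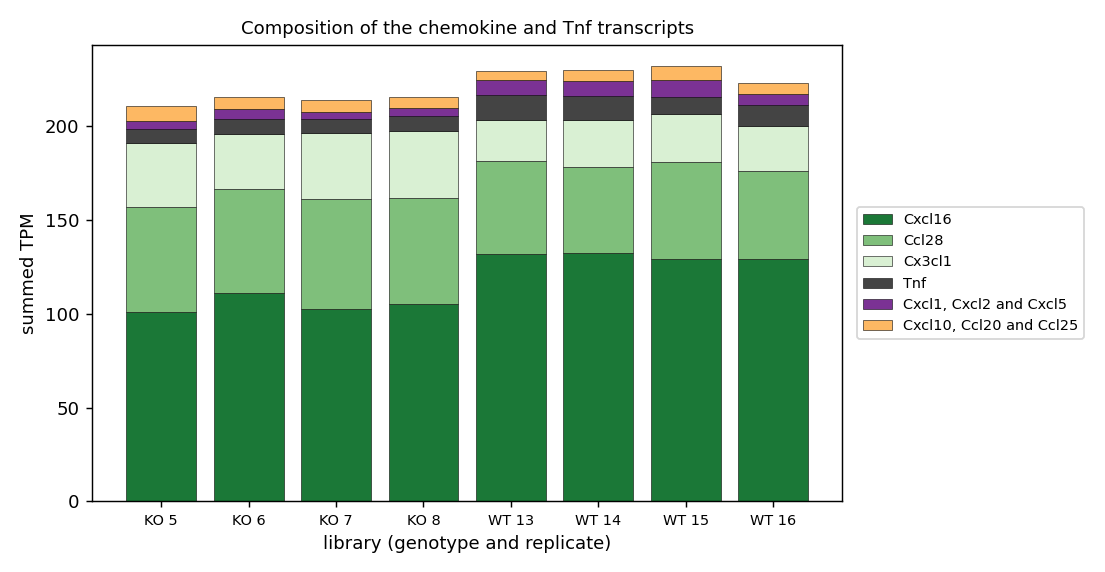
Summed TPM of the 10 genes in each library, stacked by gene or group of genes. Cxcl16 is the largest block, at 101 to 111 TPM in KO and 129 to 132 TPM in WT libraries, and the Cx3cl1 and Ccl28 blocks are taller in the KO libraries.

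Of the neutrophil attractants, Cxcl1 was the one that passed the test, and it was lower in KO. Cxcl1 (NCBI Gene ID 14825, chromosome 5, 90891245 to 90893121, GRCm38) encodes KC, a CXCR2 ligand induced by inflammatory signals. It had 18, 23, 10 and 20 counts in KO replicates 5 to 8, against 68, 82, 88 and 41 counts in WT replicates 13 to 16. Scaled by TMM, these were 0.426, 0.474, 0.211 and 0.430 CPM in KO organoids and 1.63, 1.66, 1.87 and 1.11 CPM in WT. Every KO library lay below every WT library, with KO replicate 7 the lowest of KO and WT replicate 16 the lowest of WT. Cxcl1 fell to 0.385 ± 0.118 CPM in KO, against 1.57 ± 0.325 CPM in WT organoids (SD, n = 4). The log2 fold change was -2.02 ± 0.26 (SE, 95% interval -2.59 to -1.46, edgeR adjusted p = 2.0e-04), or -2.14 without KO replicate 6 (edgeR adjusted p = 6.0e-04). This was the largest fitted change among the 10 genes, a 4.07-fold higher level in WT, on a base of few reads.

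Cxcl2 (chromosome 5, 90903899 to 90905938), which encodes the related ligand MIP-2 and lies 10777 bases beyond the end of Cxcl1, did not pass. It had 0.378, 0.660, 0.675 and 0.237 CPM in KO replicates 5 to 8, against 0.791, 1.07, 0.851 and 0.621 CPM in WT replicates 13 to 16. KO replicates 6 and 7 lay above WT replicate 16, so the groups overlapped. The log2 fold change of Cxcl2 was -0.77 ± 0.32 (SE, 95% interval -1.46 to -0.087, edgeR adjusted p = 0.124), and -0.95 without KO replicate 6 (edgeR adjusted p = 0.0990). Cxcl5 (chromosome 5, 90759298 to 90761625), whose product LIX is another CXCR2 ligand, had 2.21 ± 0.240 CPM in KO organoids and 2.63 ± 0.433 CPM in WT organoids (SD, n = 4). Its libraries overlapped, and its log2 fold change was -0.25 ± 0.15 (SE, 95% interval -0.57 to 0.072, edgeR adjusted p = 0.302), and -0.30 without KO replicate 6 (edgeR adjusted p = 0.271). The fitted change of Cxcl1 lies outside the intervals of both Cxcl2 and Cxcl5, which is not a test of a difference.

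Ratios within a library describe the make-up of the neutrophil attractants, with no test. On the TPM scale the ratio of Cxcl5 to Cxcl1 was 3.14, 3.02, 5.34 and 3.00 in KO replicates 5 to 8, against 1.02, 0.785, 0.968 and 1.22 in WT replicates 13 to 16. All KO ratios exceeded all WT ratios. Cxcl1 alone separated the genotypes while Cxcl5 overlapped, so this largely restates the Cxcl1 difference and is no further result. The ratio of Cxcl2 to Cxcl1 ran from 0.458 to 2.91 in KO and from 0.402 to 0.572 in WT and overlapped, the lowest KO value being that of replicate 8. Cxcl1 and Cxcl2 share the kappaB letters shown above, and Cxcl1 passed the test where Cxcl2 did not. Whether their changes differ was not tested.

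Among the lymphocyte attractants the membrane-anchored pair moved in opposite directions. Cxcl16 (NCBI Gene ID 66102, chromosome 11, 70454389 to 70459984) encodes the ligand of CXCR6, a receptor of T cells and innate lymphoid cells. It had 78.5, 87.2, 78.8 and 81.2 CPM in KO replicates 5 to 8, against 107, 106, 101 and 102 CPM in WT replicates 13 to 16. Every KO library lay below every WT library, and KO replicate 6 was the highest of KO. The log2 fold change of Cxcl16 was -0.35 ± 0.046 (SE, 95% interval -0.45 to -0.25, edgeR adjusted p = 2.0e-04), a level 21.7% lower in KO, and -0.39 without KO replicate 6 (edgeR adjusted p = 2.3e-04).

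Cx3cl1 (NCBI Gene ID 20312, chromosome 8, 94772180 to 94782427) encodes fractalkine, the ligand of CX3CR1 on monocytes, macrophages and some lymphocytes. It had 53.2, 46.9, 54.5 and 55.9 CPM in KO replicates 5 to 8, against 35.6, 41.1, 39.4 and 38.9 CPM in WT replicates 13 to 16. Every KO library lay above every WT library, with KO replicate 6 the lowest of KO. Cx3cl1 rose 1.36-fold in KO, at a log2 fold change of 0.44 ± 0.062 (SE, 95% interval 0.31 to 0.57, edgeR adjusted p = 3.9e-04), or 0.49 without KO replicate 6 (edgeR adjusted p = 2.1e-04). On the TPM scale the ratio of Cx3cl1 to Cxcl16 was 0.334, 0.264, 0.341 and 0.341 in KO replicates 5 to 8, against 0.168, 0.191, 0.195 and 0.185 in WT replicates 13 to 16. The lowest KO ratio, that of replicate 6, exceeded the highest WT ratio. This follows from the separation of each gene alone in opposite directions and is no further result. KO replicate 6 was the KO library closest to WT in both genes, and likewise in Cxcl1 and Tnf, but not in Ccl28.

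Ccl28 (NCBI Gene ID 56838, chromosome 13, 119623819 to 119654359) encodes a colonic chemokine that draws IgA-producing plasma cells through CCR10 and also has antimicrobial activity. It had 105, 105, 108 and 104 CPM in KO replicates 5 to 8, against 94.0, 89.2, 97.0 and 90.6 CPM in WT replicates 13 to 16. The KO libraries agreed closely, and the lowest of them lay above the highest WT library, replicate 15. Ccl28 rose by 0.19 ± 0.042 on the log2 scale (SE, 95% interval 0.097 to 0.28, edgeR adjusted p = 0.0079), a 1.14-fold change and the smallest of those that passed. Without KO replicate 6 it was 0.19 (edgeR adjusted p = 0.0195).

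The other lymphocyte attractants were scarce and did not pass. Cxcl10 (chromosome 5, 92346638 to 92348889), an interferon-induced ligand of CXCR3, had 1.75, 0.949, 0.717 and 0.646 CPM in KO replicates 5 to 8, against 0.839, 0.990, 1.06 and 0.810 CPM in WT replicates 13 to 16. KO replicate 5 was the highest and KO replicate 8 the lowest of all libraries. The log2 fold change of Cxcl10 was 0.12 ± 0.29 (SE, 95% interval -0.51 to 0.75, edgeR adjusted p = 0.846), or -0.27 without KO replicate 5, so no direction can be given. Ccl20 (chromosome 1, 83116766 to 83119167), the CCR6 ligand of the epithelium over lymphoid follicles, had 0.781 ± 0.162 CPM in KO organoids and 0.532 ± 0.220 CPM in WT organoids (SD, n = 4), with overlapping libraries. Its log2 fold change was 0.56 ± 0.31 (SE, 95% interval -0.11 to 1.22, edgeR adjusted p = 0.260). Ccl25 (chromosome 8, 4325205 to 4360020), the CCR9 ligand known mainly from small intestine and thymus, had 1.83 ± 0.232 CPM in KO organoids and 1.93 ± 0.257 CPM in WT organoids (SD, n = 4). Its libraries overlapped too, at a log2 fold change of -0.081 ± 0.16 (SE, 95% interval -0.42 to 0.26, edgeR adjusted p = 0.793). Without KO replicate 6 the log2 fold changes of Cxcl10, Ccl20 and Ccl25 were 0.15, 0.49 and -0.011, with edgeR adjusted p of 0.831, 0.406 and 0.977.

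Tnf (NCBI Gene ID 21926, chromosome 17, 35199367 to 35202007) was the fourth most abundant of the 10 genes per length. It had 6.43, 6.97, 6.12 and 6.59 CPM in KO replicates 5 to 8, against 11.1, 11.0, 7.60 and 9.61 CPM in WT replicates 13 to 16. Every KO library lay below every WT library, and the WT libraries were spread more widely than the KO libraries. Tnf fell to 6.53 ± 0.355 CPM in KO, against 9.82 ± 1.63 CPM in WT organoids (SD, n = 4). The log2 fold change was -0.59 ± 0.11 (SE, 95% interval -0.83 to -0.35, edgeR adjusted p = 0.0031), a level 33.5% lower in KO, or -0.62 without KO replicate 6 (edgeR adjusted p = 0.0063).

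**Figure D4:**
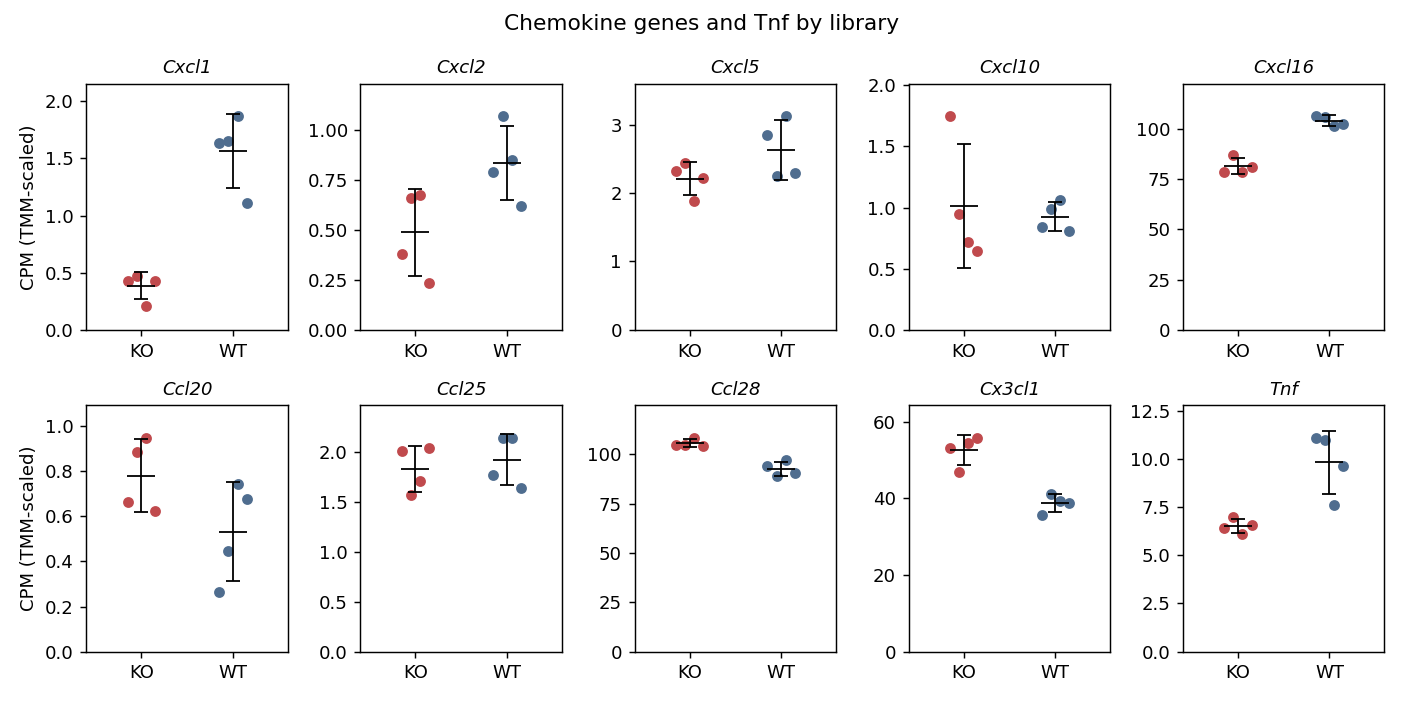
TMM-scaled CPM of each gene in the 4 KO and 4 WT libraries (points), with the mean and SD, each panel on its own axis from 0. KO points lie wholly below WT points for Cxcl1, Cxcl16 and Tnf and wholly above them for Ccl28 and Cx3cl1.

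Overlapping genes limit some of these values, because the sources used here do not say whether reads were counted by strand. Cxcl16 shares 552 bases with Zmynd15, which had 16 to 36 counts in KO and 12 to 29 in WT, far fewer than Cxcl16. Cxcl10 lies wholly within Art3, which had 0 counts in KO and at most 2 in WT. Ccl25 shares 13636 bases with the long noncoding RNA gene LOC108167518, which had 35 to 58 counts in KO and 37 to 64 in WT, so the Ccl25 level is uncertain. Cx3cl1 shares 1327 bases with the long noncoding RNA gene Gm51543, which has no entry under that name among the deposited counts. The weight of this overlap in the Cx3cl1 level therefore cannot be judged. Cxcl1 and Cxcl2 have similar sequences, and their split of reads is uncertain to that extent.

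The genes whose course over the 8 libraries was most like that of Cxcl1 and Tnf were found as those with the smallest mean absolute difference in centred log2 CPM among the tested genes. For Cxcl1 these were 1700067K01Rik (0.27), the monocyte chemokine gene Ccl7 (0.38) and Spink1 (0.38), a trypsin inhibitor gene. For Tnf they were the claudin gene Cldn4 (0.071), Cbs (0.071), an enzyme gene of cysteine synthesis, and Gm4827 (0.077). Cldn4 is abundant, at 477 ± 31.8 CPM in KO organoids and 720 ± 58.0 CPM in WT, while 1700067K01Rik and Gm4827 were below 0.6 CPM in every library. The 6 genes were picked for this likeness, which fixes their direction, so no test of them is given here. Ccl7 is tested below as a member of its chemokine list, not for this likeness. 1700067K01Rik and Gm4827 reached the filter level of 0.214 CPM in WT libraries and in no KO library. Spink1 had 1.53 ± 0.170 CPM in KO organoids and 3.57 ± 0.823 CPM in WT organoids, and Cbs 2.79 ± 0.276 and 4.23 ± 0.681 CPM (SD, n = 4). The likeness is a description over libraries that share their culture and genotype.

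Of the rest of the chemokine family, most genes had too few counts to test. Of 10 other CXC chemokine genes 2 were tested and none was called, with a median log2 fold change of -0.25 against -0.0012 for all tested genes. The platelet chemokine gene Pf4 had 0.904 ± 0.155 CPM in KO organoids and 1.32 ± 0.245 CPM in WT organoids (SD, n = 4, edgeR adjusted p = 0.0882). Its KO libraries, at most 1.07 CPM, lay narrowly below its WT libraries, at least 1.08 CPM (log2 fold change -0.55). Cxcl15, a chemokine gene named for its expression in lung, had 100 counts in KO replicate 6, 11 in WT replicate 15 and 0 in the other libraries, and KO replicate 6 is the library that held the surfactant transcripts. Of 19 other CC and XC chemokine genes 12 had 0 counts throughout, 4 were tested and 1 fell, with a median log2 fold change of -0.099. Among all tested genes 8.26% fell. Ccl6, named after its values were seen, was the most abundant of the 4 in CPM, with 3.72 to 3.93 CPM in KO libraries, against 2.79 to 3.34 CPM in WT libraries. Its KO libraries lay above its WT libraries, and it did not pass (log2 fold change 0.32 ± 0.11, SE, edgeR adjusted p = 0.0598). Ccl7, also named above for its likeness to Cxcl1, was the gene that fell. Its level was 0.953 ± 0.212 CPM in KO organoids and 2.28 ± 0.714 CPM in WT organoids (SD, n = 4). Ccl7 fell by 1.25 ± 0.24 on the log2 scale (SE, edgeR adjusted p = 0.0031). Of 22 chemokine receptor genes 13 had 0 counts throughout, Cxcr6, Ccr6, Ccr9 and Cx3cr1 among them, and 17 had at most 3 counts in any library. Ccr1 was the only receptor gene tested (log2 fold change 0.52, edgeR adjusted p = 0.262), and Ccr10, the second most abundant, had at most 9 counts in any library.

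Genes that carry the TNF signal to NF-kB were all tested. Of 19 genes of TNF receptor signalling 1 rose and 1 fell, near the 7.63% and 8.26% of all tested genes, with a median log2 fold change of 0.039. Ikbkg, which encodes the NEMO subunit of the IkB kinase, rose to 120 ± 2.87 CPM in KO, against 100 ± 4.79 CPM in WT organoids (SD, n = 4, log2 fold change 0.26, edgeR adjusted p = 0.0014). The NF-kB subunit gene Rela fell by 0.19 on the log2 scale (edgeR adjusted p = 0.0414). The receptor gene Tnfrsf1a stood at 87.1 ± 1.79 CPM in KO organoids and 83.7 ± 1.93 CPM in WT and did not pass (edgeR adjusted p = 0.378). Of 12 tested feedback genes of NF-kB 3 fell and none rose, where 8.26% of all tested genes fell and 7.63% rose, with a median log2 fold change of -0.091. Tnfaip3, the gene of the deubiquitinase A20, fell by 0.19 (edgeR adjusted p = 0.0079), the IkB family gene Bcl3 by 0.25 (edgeR adjusted p = 0.0391) and Nfkbia, the gene of IkB alpha, by 0.15 (edgeR adjusted p = 0.0468). The calls of Rela, Bcl3 and Nfkbia each ended when KO replicate 5, 7 or 8 or WT replicate 13, 14 or 16 was left out, at edgeR adjusted p of 0.0726 to 0.137, 0.0639 to 0.126 and 0.0672 to 0.156. With all 8 libraries, upper quartile scaling ended the calls of Rela (edgeR adjusted p = 0.0516) and Nfkbia (edgeR adjusted p = 0.0606), and limma-voom that of Bcl3 (adjusted p = 0.0526). Testing without the low-count filter, which adds genes to the adjustment, ended the calls of all 3, and of Timp3, Ifngr1, Tlr3 and Cldn3, at edgeR adjusted p of 0.0548 to 0.0767.

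Genes that act on the chemokines before or after their release were described in the same way. The shares to set beside the counts of these lists are 8.26% of all tested genes that fell and 7.63% that rose. Of 6 genes of ectodomain shedding, which frees CXCL16, CX3CL1 and TNF from the membrane, 1 fell and none rose, with a median of -0.064. It was the protease inhibitor gene Timp3 (log2 fold change -0.20, edgeR adjusted p = 0.0338), a call lost on leaving out KO replicate 6, 7 or 8 or WT replicate 13, at 0.0822 to 0.107 on the same test. The protease genes themselves stood at 302 ± 5.89 CPM in KO organoids and 313 ± 28.1 CPM in WT for Adam10 and at 56.7 ± 1.52 and 55.1 ± 1.30 CPM for Adam17 (SD, n = 4). Of 8 genes for proteins that bind AU-rich elements of cytokine mRNAs 1 fell and none rose, beside those shares, with a median of -0.057. That was Khsrp, whose product promotes decay of such mRNAs and which fell by 0.26 ± 0.043 on the log2 scale (SE, edgeR adjusted p = 0.0012). Of 6 chemokine-cleaving protease genes 2 were tested and none passed, with a median of -0.37. Mmp7 had 7.76 ± 0.717 CPM in KO organoids and 8.98 ± 1.23 CPM in WT organoids, and Dpp4 0.194 ± 0.0724 and 0.282 ± 0.0789 CPM (SD, n = 4).

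Of 14 tested receptor genes for cytokines and microbial products that act upstream of chemokine genes, 1 rose and 2 fell, where 7.63% of all tested genes rose and 8.26% fell, with a median log2 fold change of 0.040. Tlr5, the flagellin receptor gene, fell by 0.39 ± 0.094 on the log2 scale (SE, edgeR adjusted p = 0.0118), to 3.90 ± 0.158 CPM in KO, against 5.13 ± 0.266 CPM in WT organoids (SD, n = 4). Ifngr1, an interferon gamma receptor gene, fell by 0.13 (edgeR adjusted p = 0.0328), and Tlr3, the gene of a receptor for double-stranded RNA, rose by 0.23 (edgeR adjusted p = 0.0407). The Ifngr1 call was lost on leaving out any 1 KO library, or WT replicate 13 or 14, at 0.0572 to 0.117 on the same adjusted scale. That of Tlr3 was lost on leaving out any 1 KO library, or WT replicate 13 or 16 (0.0643 to 0.117). That of the marker Cldn3 was lost on leaving out any of KO replicates 5, 7 and 8 and WT replicates 13, 14 and 16 (0.0825 to 0.112).

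**Figure D5:**
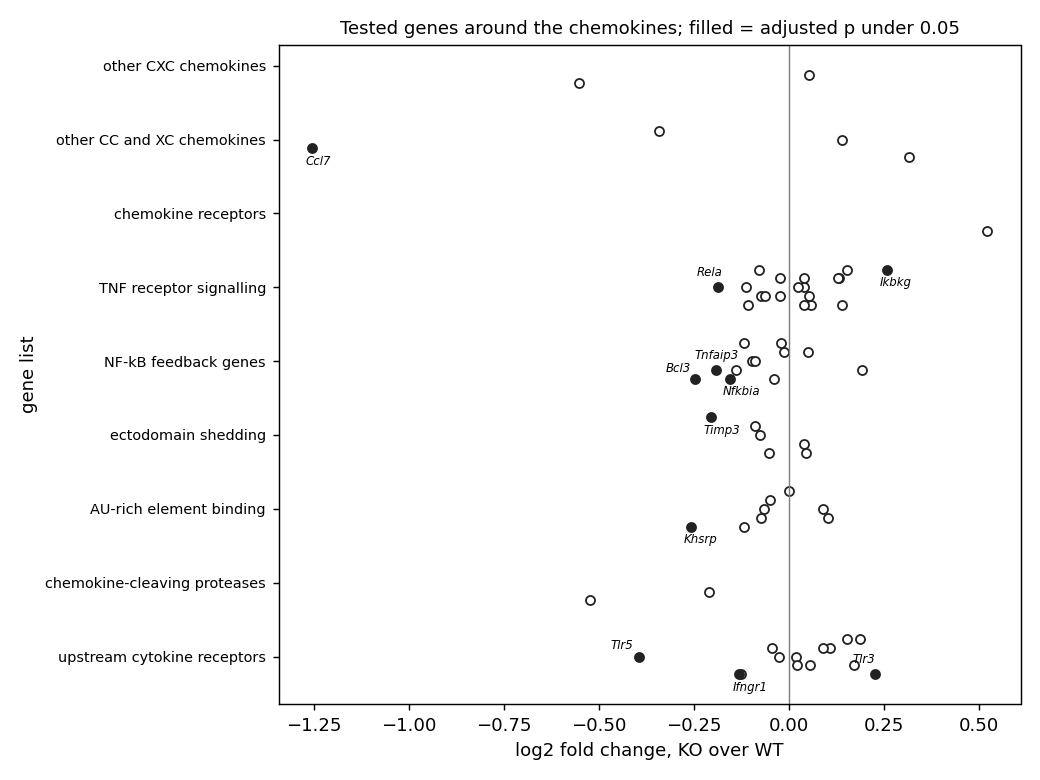
Fitted log2 fold changes in KO over WT of the tested genes in 9 lists around the chemokines, 1 point per gene. Filled points with names passed the adjusted test, and Ccl7 at -1.25 and Tlr5 at -0.39 lie farthest from 0 among them.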

How the data were processed

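RNA sequencing counts of 4 KO and 4 WT libraries were taken from the table the authors deposited. The deposited counts are whole numbers per gene, not normalized. The authors' FPKM values were deposited beside them and were not used in a test, and the authors' TPM values, scaled for transcript length, were used to compare levels between genes and to describe sums, shares and ratios of the 10 genes in each library, with no test. Per the submitters' processing notes TopHat2, TopHat, Bowtie2, HTSeq and the build GRCm38 were used, with no version or role given. In every library more genes had 2 counts (673 to 772) than 1 count (548 to 622), so each fragment may have been counted by both of its mates. Limits for a count of 0 allow 3 counts and cover counting error only. They take each count as 1 fragment, and are too low if both mates were counted.

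From the counts, low genes were removed by filterByExpr, TMM factors were computed, and genotypes were compared by edgeR 4.0.16 (quasi-likelihood, R 4.3.3), with p-values adjusted by Benjamini-Hochberg over all 14945 tested genes, at a threshold of 0.05. CPM is TMM-scaled, the SE is the log2 fold change divided by the square root of F, and 95% intervals use the moderated degrees of freedom. The procedure was tested on simulated data. Groups come from the genotype labels, and the genotypes share no replicate number. No 2 libraries were alike within sampling noise (chi-square per degree of freedom 4.94 to 10.7 within KO and 11.1 to 24.9 within WT). Alternatives were other scalings, DESeq2 1.42.0, limma-voom (limma 3.58.1), other filters and leaving out each library.

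The genes, the lists and the tests were chosen with earlier results of these data known. Named are the 10 genes, the 3 genes nearest to Cxcl1 and to Tnf, and up to 4 genes a list, those called with the lowest adjusted p, or for a list with none called its 2 genes of highest mean CPM. Other genes were named after their values were seen. Protein sequences were not used here. Tables and plots were made with Python 3.11.15, pandas 2.3.3 and matplotlib 3.10.9.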

Additional observations from a re-analysis of the deposited data

Results flagged for a closer look

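Among the values of 42 named genes, each genotype's 4 libraries were searched for 1 library separated from the nearest other by more than 0.829 of the group's range. Of 84 groups 12 held such a library, where chance gives about 1 in 20 for unrelated groups. These groups come from the same libraries, and many genes were named for their adjusted p in these data, so that share is a rough guide only. That share does not hold for Cxcl15 and Cdh5, which supply 3 of the 12 groups and were named as most abundant of their lists through the separate library itself. Nor does it hold for Spink1 or the other genes named for their likeness to Cxcl1 or Tnf over these same libraries. Of the 10 genes only Ccl28 held such a library, with 108 CPM in KO replicate 7 and 104 to 105 CPM in the other KO libraries. KO replicate 6 was the separate library in 5 groups: Cxcl15 had 2.06 CPM there and 0 CPM in the rest of KO, and Cdh5 0.619 CPM and 0 CPM. The other 3 were Ikbkg (116 CPM, the rest from 121 CPM), Cldn3 (360 CPM, the rest up to 330 CPM) and S100a8 (2.85 CPM, the rest up to 2.15 CPM). In WT replicate 15, Cxcl15 had 0.234 CPM and 0 CPM in the rest of WT, and Bcl3 had 35.2 CPM with the rest from 43.6 CPM. Timp3 had 142 CPM in KO replicate 5 and at most 127 CPM in the rest of KO. Ifngr1 had 171 CPM in KO replicate 7 and 180 CPM in the rest of KO. Ly6g had 500 CPM in WT replicate 14 and at most 457 CPM in the rest of WT. Spink1 had 2.35 CPM in WT replicate 16 and at least 3.84 CPM in the rest of WT.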

How the results depend on the processing

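The calls of Cxcl1, Cxcl16, Tnf, Ccl28 and Cx3cl1 kept their direction and passed in all 15 alternatives run for each, with log2 fold changes of -2.15 to -1.82, -0.39 to -0.33, -0.70 to -0.52, 0.17 to 0.21 and 0.40 to 0.49. For Cxcl1 the stricter filter gives no support, since it is passed through WT alone. The count of the 10 genes called was 2 higher and 3 lower in each. Cxcl10 turned to -0.0038 with limma-voom, and ran from -0.27 to 0.28 when 1 library was left out. The stricter filter left Cxcl2, Cxcl10 and Ccl20 untested. Over all genes, leaving out 1 library gave 696 to 1386 genes higher and 724 to 1404 lower, against 1140 and 1234 with all, the lowest without KO replicate 8 in both cases. The count of higher genes was 757 without KO replicate 5, and that of lower genes 808 without WT replicate 13. Among the other named genes 371 of 424 alternative values kept direction and call, 50 lost the call and 3 reversed. The reversed ones were Ly6g (-0.049 to 0.0050 with 1 library left out) and Vim (-0.71 to 0.66, the lowest without KO replicate 6). The cause was not tested. The low counts of Cxcl1, Cxcl2, Cxcl10 and Ccl20 limit their precision.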

Other observations

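The genes that separated KO replicate 6 from the other 7 libraries included more than surfactant genes. Gm15564 had 3070 counts there and 0 elsewhere, Chil3 54 and 0, Cd36 50 and 0, the haemoglobin gene Hbb-bs 43 and 0, the class II antigen presentation gene H2-Aa 35 and 0, and the endothelial gene Cdh5 30 and 0. Sparc had 64 counts in KO replicate 6 and at most 4 in any other library. These values were found by a search of all genes after the data were seen, and of these genes Cdh5 is part of the summed endothelial markers, whose 5.90 CPM in KO replicate 6 includes its 0.619 CPM.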
